A study of Mus musculus with 16 samples.

Results

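The PGC-1 coactivators, the PPAR and ERR nuclear receptors and 3 factors that act on mitochondrial gene expression were followed across mouse hearts after SHAM or TAC surgery, with vehicle or NR. The 10 genes, Ppargc1a, Ppargc1b, Ppara, Ppard, Esrra, Esrrb, Esrrg, Nrf1, Gabpa and Tfam, were taken by symbol, and all 10 stood in each of the 4 deposited tables, out of 19256 genes common to the tables. TAC commonly stands for transverse aortic constriction, an operation that loads the left ventricle with pressure, and the series title places NR among means of raising NAD+. Total RNA from 30 mg of heart was sequenced in 16 libraries, with 3 in the Vehicle SHAM group, 4 in Vehicle TAC, 4 in NR SHAM and 5 in NR TAC. Strain, age, sex, dose and the time after surgery are not given in the labels, and neither is the animal behind each library, so the spread that enters a p-value may be technical. Every level is a mean over the libraries of a group, since the tables hold no value per library, and sequencing depth is unknown. The authors' tables compare 4 of the 6 pairs of groups; Vehicle SHAM with NR TAC, and NR SHAM with Vehicle TAC, have no test here. The Vehicle TAC mean stood apart by liver transcripts, whose values are given beside Ppara. The NR TAC mean stood apart by atrial transcripts and Ucp1, given beside Ppargc1b. Vehicle SHAM had the highest sum of adipocyte markers, given with the other cell types. Without values per library no result can be given without these transcripts.

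PGC-1α and PGC-1β, the proteins of Ppargc1a and Ppargc1b, do not bind DNA themselves and raise transcription by docking on nuclear receptors and other factors. PPARα and the ERRs are such receptors. In heart muscle PPARα drives genes of fatty acid use and the ERRs genes of the citric acid cycle and the respiratory chain. NRF1 and GABPα (also called NRF2α) activate nuclear genes for mitochondrial proteins, among them Tfam, whose product packs mitochondrial DNA and starts its transcription.

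The sequence just upstream of a RefSeq start of 5 of these genes is shown because it carries short motifs. Those printed before Ppara, Esrra, Gabpa and Tfam are motifs of NRF1 or GABP, whose genes are among the 10. The motif printed before Ppargc1a belongs to none of the 10. RefSeq promoters for GRCm38.p6 matched 9 of the 10 genes with 14 start sites, and the 250 bases before each start were searched on both strands for 4 motifs chosen with the sequences in view. The NRF1 core GCATGCGC was found before Ppara and Esrra and in 2.26% of all 32851 promoters of the table. The core CCGGAAG, bound by GABP and other ETS factors, lay before Gabpa and Tfam and in 6.91% of promoters. The letters TGACG, a part of the cAMP response element, lay before Ppargc1a, Ppara and Esrrb and in 17.8% of promoters. The ERR motif AAGGTCA lay before none of the 9 genes and in 4.08% of promoters. A match describes letters and does not show binding. The printed stretches, 5′ to 3′ along the gene's strand with motifs in capitals, are 249 bases before Ppargc1a (chr5:51567727-51567975, minus strand), 62 before Ppara (chr15:85735714-85735775, plus strand), 245 before Esrra (chr19:6921814-6922058, minus strand), and 30 around the motifs of Gabpa (chr16:84835019-84835048, plus strand) and Tfam (chr10:71238074-71238103, minus strand).
Ppargc1a: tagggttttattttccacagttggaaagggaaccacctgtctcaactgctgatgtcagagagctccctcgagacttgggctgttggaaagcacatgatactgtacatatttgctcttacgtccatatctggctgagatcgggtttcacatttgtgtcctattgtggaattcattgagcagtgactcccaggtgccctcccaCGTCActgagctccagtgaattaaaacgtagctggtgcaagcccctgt
Ppara: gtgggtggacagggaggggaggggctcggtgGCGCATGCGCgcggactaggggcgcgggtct
Esrra: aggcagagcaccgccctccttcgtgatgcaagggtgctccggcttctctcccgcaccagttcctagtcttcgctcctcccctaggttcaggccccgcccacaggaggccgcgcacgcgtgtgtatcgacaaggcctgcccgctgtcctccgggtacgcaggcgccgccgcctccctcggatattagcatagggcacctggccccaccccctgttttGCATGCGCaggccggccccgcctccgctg
Gabpa: ggagggtaagtgCTTCCGGgtccctcagct
Tfam: tcctgccgcggaCCGGAAGtccgggcttcc
The 10 capital letters before Ppara are the NRF1 core read on both strands, which overlap. In GENCODE for GRCm38 the stretches printed for Ppara, Gabpa and Tfam lie within the bounds of those genes, downstream of their outermost annotated start. There the Tfam motif falls within the first exon of a longer Tfam transcript. The Gabpa motif falls within an exon of Atp5j, an ATP synthase gene on the opposite strand.

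The levels of the 10 genes in the 4 groups are given first, after the deposited group means had been put on 1 scale. They stayed within narrow limits: the highest group mean was 1.04 times the lowest for Nrf1 and 1.37 times for Ppara, with the other members in between. Over the 12700 genes with a mean of at least 50 normalized counts this ratio had a median of 1.19 and quartiles of 1.11 and 1.34, so the members were spread through the usual range.

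**Figure D1:**
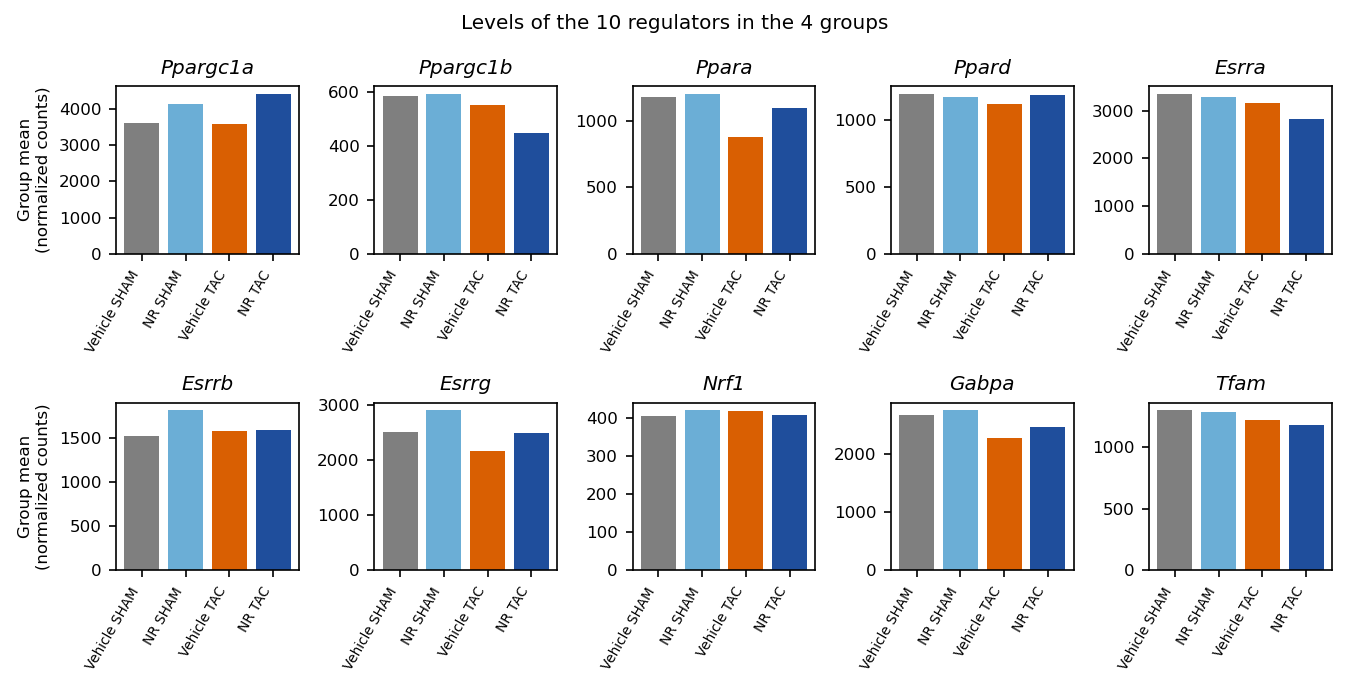
Group means of the 10 genes in normalized counts on the common scale (vertical axis from 0, 1 panel a gene) for the 4 groups; no error bars can be drawn from group means. Ppara is lowest in Vehicle TAC at 875.0, Ppargc1b lowest in NR TAC at 449.9, and Nrf1 lies between 404.9 and 419.6 in all 4 groups.

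Ppargc1a, the inducible coactivator, had scaled group means of 3620.5 normalized counts in Vehicle SHAM, 4124.3 in NR SHAM, 3570.1 in Vehicle TAC and 4407.7 in NR TAC. Both NR groups were above both vehicle groups. With NR, the deposited log2 fold change was 0.31 in TAC hearts (DESeq p 0.228, approximate 95% interval −0.19 to 0.80) and 0.19 in SHAM hearts (DESeq p 0.329, −0.19 to 0.57). With TAC, the deposited log2 fold change was −0.01 in vehicle hearts (DESeq p 0.888) and 0.11 in NR hearts (DESeq p 0.646).

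Ppargc1b, the other PGC-1 coactivator, had scaled means of 585.3 in Vehicle SHAM, 594.4 in NR SHAM, 553.3 in Vehicle TAC and 449.9 in NR TAC. The NR TAC group alone stood apart, at the low end. Its deposited log2 fold change was −0.39 against NR SHAM (DESeq p 0.179, approximate 95% interval −0.95 to 0.18) and −0.30 against Vehicle TAC (DESeq p 0.395, −0.98 to 0.39); the 2 comparisons share the NR TAC libraries. Because both PGC-1 genes are counted in the same libraries, their ratio does not depend on scaling: from the deposited means, Ppargc1a had 6.19 times the counts of Ppargc1b in Vehicle SHAM, 6.94 in NR SHAM, 6.45 in Vehicle TAC and 9.80 in NR TAC. That ratio was not tested.

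The NR TAC mean, where Ppargc1b was low, carried atrial and brown fat transcripts. Bmp10, an atrial growth factor, had deposited means of 4.21 normalized counts in NR SHAM and 6510.6 in NR TAC (DESeq p 0.00306, adjusted p 0.214), while in vehicle hearts its deposited mean was 1033.0 after SHAM and 66.0 after TAC (DESeq p 0.189). The atrial genes Sln, Myl4 and Myl7 had deposited means in NR TAC that were 15.9, 10.2 and 8.09 times those in NR SHAM (DESeq p 0.113, 0.159 and 0.182). Ucp1, the uncoupling protein of brown fat, was listed at 0 in NR SHAM and at 146.5 in NR TAC in the deposited table (DESeq p 0.00218, adjusted p 0.177), and at 0 in Vehicle TAC in another. The part of these transcripts in the NR TAC values of Ppargc1a, Ppargc1b and the listed genes was not tested.

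Ppara, the receptor that fatty acids activate, had scaled means of 1176.2 in Vehicle SHAM, 1200.0 in NR SHAM, 875.0 in Vehicle TAC and 1098.5 in NR TAC. It was the member that varied most, through the low Vehicle TAC group, and none of the 4 tested pairs of groups passed at a DESeq adjusted p below 0.05. In the deposited tables the mean differed by −25.2% after TAC in vehicle hearts (log2 fold change −0.42, DESeq p 0.185, approximate 95% interval −1.04 to 0.20), and by −7.55% after TAC in NR hearts (−0.11, DESeq p 0.469, −0.42 to 0.19). NR TAC was 25.6% above Vehicle TAC in the deposited table (log2 fold change 0.33, DESeq p 0.189, −0.16 to 0.82), a comparison that uses the same Vehicle TAC libraries. In SHAM hearts the deposited value with NR was 0.03 (DESeq p 0.924).

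The Vehicle TAC mean also carried liver transcripts. The 10 hepatocyte markers summed to 39990.7 scaled normalized counts in Vehicle TAC and to between 282.1 and 1027.1 in the other 3 groups, where 1 marker was at 0 in NR TAC. Most of the NR TAC sum was Ahsg, with a deposited mean of 963.4 in the comparison with NR SHAM. The liver expresses Ppara strongly. Whether these transcripts, or the libraries that carried them, had a part in the Ppara values was not tested.

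Ppard, the more widely expressed PPAR, had scaled means of 1193.7 in Vehicle SHAM, 1167.6 in NR SHAM, 1119.2 in Vehicle TAC and 1185.7 in NR TAC. The smallest of its 4 deposited DESeq p-values was 0.628, for TAC in vehicle hearts (log2 fold change −0.09).

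Esrra, the receptor that PGC-1α itself induces, was highest in Vehicle SHAM at a scaled mean of 3351.6, followed by NR SHAM at 3283.0, Vehicle TAC at 3158.1 and NR TAC at 2834.1. Both TAC groups lay below both SHAM groups. The deposited log2 fold change for TAC was −0.20 in NR hearts (DESeq p 0.122, approximate 95% interval −0.45 to 0.05), the smallest p of any member after TAC, and −0.08 in vehicle hearts (DESeq p 0.615). Its exons overlap those of Trmt112, on the opposite strand, and of Mir6990 over 3.74% of their length, and the sources used here do not say whether counting used strand.

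Esrrb, best known for its role in embryonic stem cells, had scaled means of 1528.0 in Vehicle SHAM, 1818.4 in NR SHAM, 1580.6 in Vehicle TAC and 1601.9 in NR TAC. NR SHAM was the high group. The deposited log2 fold change with NR in SHAM hearts was 0.25 (DESeq p 0.0402, adjusted p 1, approximate 95% interval 0.01 to 0.49), the only unadjusted p below 0.05 among the 40 values of the members. In TAC hearts the deposited value was 0.02 (DESeq p 0.978).

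Esrrg, the ERR needed for the heart's switch to oxidative metabolism after birth, had scaled means of 2504.0 in Vehicle SHAM, 2898.2 in NR SHAM, 2171.5 in Vehicle TAC and 2495.8 in NR TAC. Within each treatment the TAC group was the lower. The deposited log2 fold change for TAC was −0.20 in vehicle hearts (DESeq p 0.233, approximate 95% interval −0.52 to 0.13) and −0.20 in NR hearts (DESeq p 0.136, −0.47 to 0.06). With NR the deposited value was 0.21 in SHAM hearts (DESeq p 0.0767, −0.02 to 0.44) and 0.20 in TAC hearts (DESeq p 0.281, −0.17 to 0.57).

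Nrf1, which encodes nuclear respiratory factor 1, had scaled means of 404.9 in Vehicle SHAM, 419.6 in NR SHAM, 418.0 in Vehicle TAC and 407.6 in NR TAC, and 2.00% of the 12700 genes varied less. Its smallest deposited DESeq p was 0.756.

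Gabpa, the DNA-binding subunit of GABP, had scaled means of 2679.6 in Vehicle SHAM, 2755.5 in NR SHAM, 2284.7 in Vehicle TAC and 2470.8 in NR TAC, with both TAC groups below both SHAM groups. The deposited log2 fold change for TAC was −0.22 in vehicle hearts (DESeq p 0.186, approximate 95% interval −0.55 to 0.11) and −0.14 in NR hearts (DESeq p 0.294, −0.41 to 0.12). Atp5j overlaps 6.98% of the Gabpa exons on the opposite strand and had scaled means of 21545.4 and 18936.0 in Vehicle SHAM and Vehicle TAC; without strand, reads there cannot be told apart.

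Tfam had scaled means of 1299.5 in Vehicle SHAM, 1284.3 in NR SHAM, 1220.6 in Vehicle TAC and 1178.4 in NR TAC. The deposited log2 fold change for TAC was −0.08 in vehicle hearts (DESeq p 0.607) and −0.11 in NR hearts (DESeq p 0.388, approximate 95% interval −0.36 to 0.14). The order of its groups matched that of Esrra, and of the neighbours in it Vehicle SHAM with NR SHAM and Vehicle TAC with NR TAC did not pass the deposited test, while NR SHAM with Vehicle TAC has none.

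**Figure D2:**
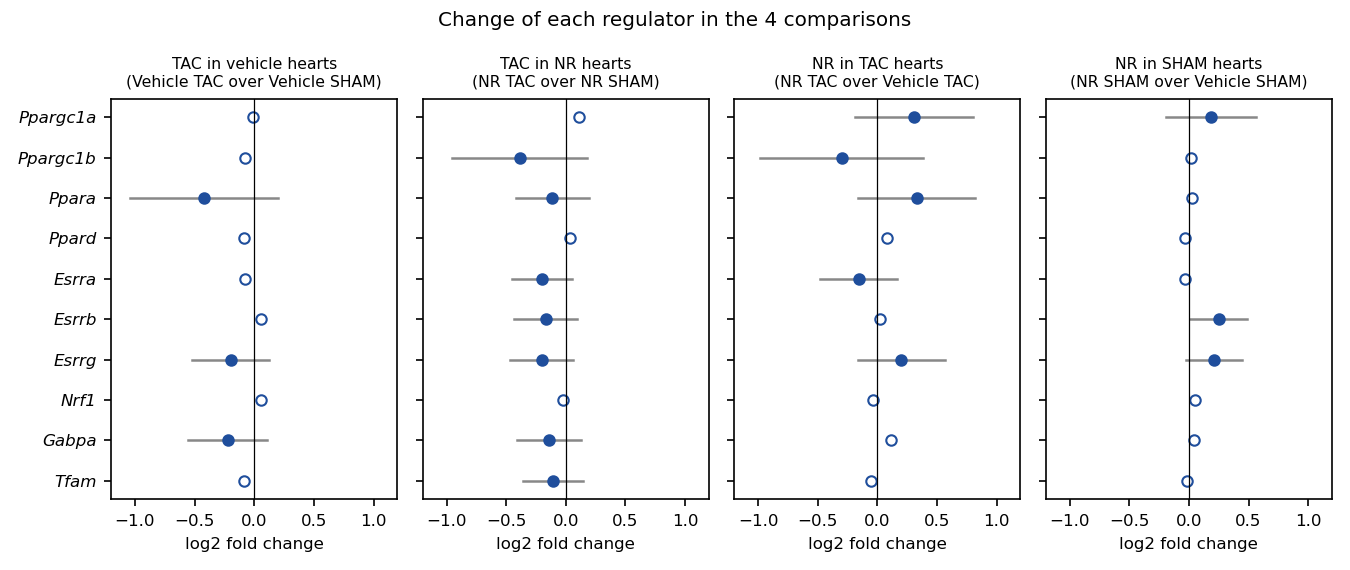
Deposited log2 fold change of each gene (horizontal axis) in the 4 comparisons; grey lines are approximate 95% intervals formed from the authors' DESeq p, and open points have a p above 0.5, for which no interval was formed. Of the 18 intervals, that of Esrrb with NR in SHAM hearts leaves out 0.

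The members are given beside all genes. At the low shares below, 0 of 10 called, or 0 or 1 at an unadjusted p below 0.05, says little about the members. After TAC in vehicle hearts 0 of 10 were called at a DESeq adjusted p below 0.05, where 0.0487% of 20540 genes were, and 0 had an unadjusted p below 0.05, where 4.89% did. After TAC in NR hearts 0 of 10 were called beside 0.549% of 20946 genes, and 0 had an unadjusted DESeq p below 0.05 beside 6.98%. With NR, 0 of 10 were called in TAC hearts, beside 0% of 21420 genes (0 members and 2.61% of genes at an unadjusted DESeq p below 0.05), and 0 of 10 in SHAM hearts, beside 0% of 19917 genes (1 member and 1.88%). The members' median log2 fold change from the deposited tables was −0.08 for TAC in vehicle hearts and −0.13 for TAC in NR hearts. In each, 8 of 10 were negative. Genes with a mean of at least 50 had medians of −0.01 and 0.00, and 48.2% and 50.8% of them were positive. The signs of the members were not tested. With NR the members' median was 0.05 in TAC hearts and 0.03 in SHAM hearts, and genes with a mean of at least 50 had a median of 0.00 in both. A p that misses the threshold does not show that levels were equal: the intervals allow Ppara in vehicle hearts to be 0.487 to 1.15 times its SHAM level after TAC.

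Whether the TAC effect differed between NR and vehicle hearts was tested directly, with an approximate z over 18774 genes. No member passed, and 0 genes did over all. Of the 18774 genes 158 had an unadjusted p below 0.05, fewer than that threshold alone would give, and errors formed from a p above 0.5, such as that of Ppargc1b in vehicle hearts (DESeq p 0.74), are unreliable, so a member that does not pass says little. The largest differences, NR minus vehicle, were −0.31 for Ppargc1b (standard error 0.36, approximate z p 0.39) and 0.31 for Ppara (standard error 0.35, approximate z p 0.386). Each of these p-values was formed from the values of its own gene. For Esrrg, whose deposited values were −0.198 and −0.202, the difference was −0.00355 with a standard error of 0.214, so a difference of the size of its TAC effects lay within the error.

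The make-up of each family was compared per length of annotated exons. Ppargc1a made up 78.9% of the PGC-1 pair in Vehicle SHAM, 80.8% in NR SHAM, 79.6% in Vehicle TAC and 85.6% in NR TAC. Esrra was the leading ERR, with 53.8%, 49.4%, 54.1% and 49.2% of the 3 ERR levels in the same order, followed by Esrrg with 28.4%, 30.8%, 26.3% and 30.6%. For the ERRs, both NR groups thus had a lower Esrra share than both vehicle groups, by either length; these shares have no error and were not tested. Pparg, which is not among the 10 genes and marks fat cells, was set beside Ppara and Ppard. Adipocyte markers summed to 2188.7 scaled normalized counts in Vehicle SHAM and to 488.7 in Vehicle TAC, and their part in these shares was not tested. Per exon length Ppara held 46.8% of the PPAR level in Vehicle SHAM and 41.2% in Vehicle TAC, ahead of Pparg with 28.9% and 32.0%. Per length of the longest transcript the shares are closer, with Ppara at 37.1% and Ppard at 34.5% in Vehicle SHAM at 39.5% and 35.2% in NR SHAM, at 31.9% and 37.4% in Vehicle TAC, the group with liver transcripts, and at 36.3% and 35.9% in NR TAC. By this length Ppard is thus ahead in Vehicle TAC alone of the 4 groups, where per exon length Ppara led in each. The annotated exons of Ppard sum to 7514 bases and its longest transcript to 3726.

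**Figure D3:**
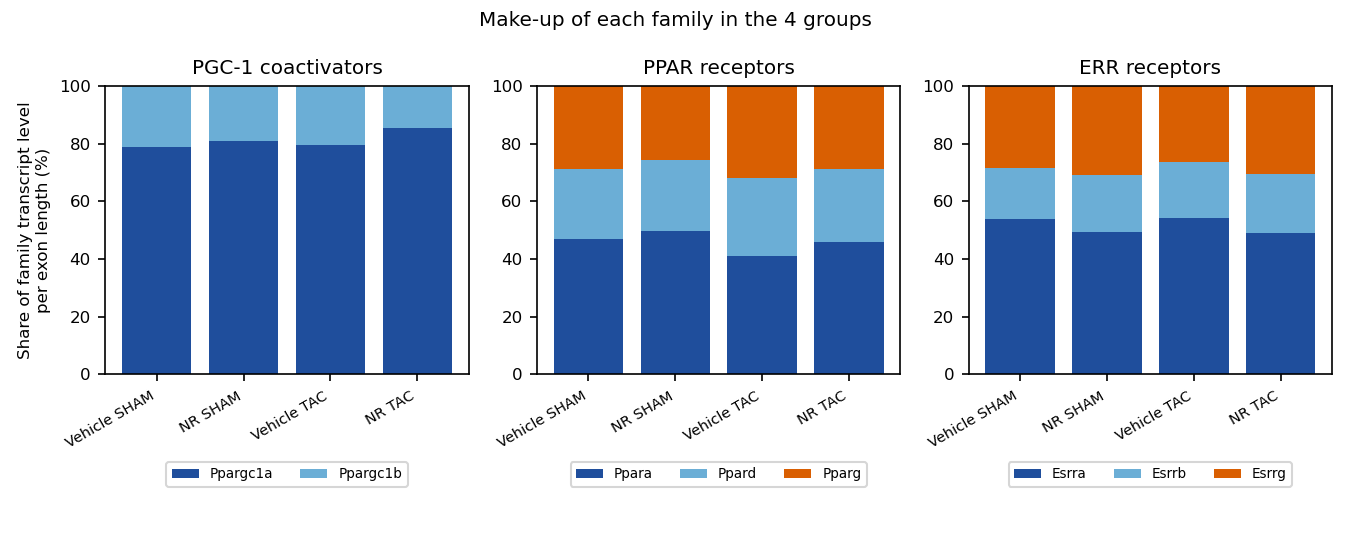
Share of each family's level per exon length (percent, vertical axis) held by each member in the 4 groups; shares are of group means and have no error bars. Ppargc1a fills 78.9% to 85.6% of its pair, and Esrra 49.2% to 54.1% of the ERRs.

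Around the 10 genes, 5 lists were counted. For all 5, the share of genes with a mean of at least 50 at an unadjusted DESeq p below 0.05 serves as background. It was 6.08% after TAC in vehicle hearts and 9.69% in NR hearts. With NR it was 3.02% in TAC hearts and 1.91% in SHAM hearts. As background for signs, 48.2% of these genes were positive after TAC in vehicle hearts and 50.8% in NR hearts. With NR, 50.7% were positive in TAC hearts and 49.7% in SHAM hearts. Of 21 receptor partners, coactivators and corepressors, 0 were called by DESeq in any comparison. At an unadjusted p below 0.05 there was 1 after TAC in vehicle hearts, 1 after TAC in NR hearts and 0 with NR. After TAC in vehicle hearts 17 of 21 had a lower mean (median log2 fold change −0.12), led in the deposited table by Rxrg, a retinoid X receptor that pairs with PPARs (−0.41, DESeq p 0.0157, adjusted p 0.88). Ncoa1, a coactivator of nuclear receptors, was at −0.35 (DESeq p 0.0546) in the deposited table. In NR hearts 12 of 21 were lower (median −0.03), where Ncoa1 was at −0.33 (DESeq p 0.0299, adjusted p 0.591) and Perm1, a muscle partner of PGC-1 and ERR, was at −0.31 (DESeq p 0.0509) in the deposited table. With NR, 16 of 21 were higher in TAC hearts and 17 of 21 in SHAM hearts (medians 0.06 and 0.06); the deposited value of Sirt1, the NAD+-dependent deacetylase that acts on PGC-1α, was 0.33 in TAC hearts (DESeq p 0.0785).

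PPAR target genes, most of them for fatty acid uptake and oxidation, held 1 call. After TAC in NR hearts Slc27a1, a fatty acid transporter, fell from 6361.1 to 4322.6 normalized counts in the deposited table (log2 fold change −0.56, DESeq adjusted p 0.0222), the 1 call among the 30 genes measured; 24 of 30 were negative, the median was −0.23, and 13 lower and 2 higher genes had an unadjusted DESeq p below 0.05. In vehicle hearts the deposited value of Slc27a1 was −0.52 (DESeq p 0.0505, adjusted p 1). In vehicle hearts 0 of 32 were called and 24 of 32 were negative (median −0.31), with 9 lower and 1 higher at an unadjusted DESeq p below 0.05; the smallest p-values in the deposited table were those of Ech1 (−0.68, DESeq p 0.00226), Decr1 (−0.54, 0.00285) and Acadm (−0.47, 0.00418), enzymes of fatty acid oxidation. Among the 12823 and 12535 genes with a mean of at least 50 in the vehicle and NR tables, 48.2% and 50.8% had positive values. Of the same genes 6.08% and 9.69% had an unadjusted DESeq p below 0.05. With NR in TAC hearts 2 targets, both higher, had an unadjusted DESeq p below 0.05. Pdk4, a kinase that shuts off pyruvate oxidation, had deposited means of 12946.7 in Vehicle TAC and 22457.2 in NR TAC (0.80, DESeq p 0.00377, adjusted p 1). Against NR SHAM the deposited value of Pdk4 in NR TAC was 0.74 (DESeq p 0.00957, adjusted p 0.373), and the 2 values share the NR TAC libraries, whose atrial and Ucp1 transcripts are given beside Ppargc1b. Acot1, an acyl-CoA thioesterase, was at 0.67 (DESeq p 0.0271, adjusted p 1) with NR in TAC hearts in the deposited table. In that comparison 23 of 32 targets were positive (median 0.12), and in SHAM hearts with NR 19 of 29 (median 0.02), with 0 called by DESeq in either and 0 at an unadjusted p below 0.05 in SHAM hearts.

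ERR target genes, enzymes of the citric acid cycle and subunits of the respiratory chain for the most part, had lower means after TAC in 28 of 29 cases in vehicle hearts (median −0.19) and in 28 of 29 in NR hearts (median −0.22). None was called by DESeq. An unadjusted p below 0.05 was found for 3 of 29 and 9 of 29, beside 6.08% and 9.69% of genes with a mean of at least 50. Sdha, a subunit of succinate dehydrogenase, had the smallest p in both deposited tables, with −0.40 in vehicle hearts (DESeq p 0.0157) and −0.36 in NR hearts (DESeq p 0.0085, adjusted p 0.351). Cs, citrate synthase, was at −0.35 (DESeq p 0.0341) in the deposited table of vehicle hearts, and Pdha1, a pyruvate dehydrogenase subunit, at −0.31 (DESeq p 0.0204) in that of NR hearts. With NR the medians were 0.00 in TAC and 0.03 in SHAM hearts, with 17 and 25 of 29 positive, 0 called and 0 at an unadjusted DESeq p below 0.05. Cardiomyocyte markers are given beside these lists, with 0 called by DESeq. The 8 markers summed to 2183940.5 and 2205955.7 scaled normalized counts in Vehicle SHAM and NR SHAM. In Vehicle TAC and NR TAC the sums were 2000996.1 and 1963598.9. After TAC, 7 of 8 were lower in vehicle hearts (median log2 fold change −0.23) and 6 of 8 in NR hearts (median −0.18), medians near those of the ERR targets. Mb is both a marker and a listed ERR target. In whole heart, fewer cardiomyocytes and less RNA per cardiomyocyte cannot be told apart.

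Factors that transcribe and copy mitochondrial DNA, where TFAM acts, held 0 DESeq calls among 16 measured genes in every comparison, and 0 at an unadjusted p below 0.05. After TAC 14 of 16 were negative in vehicle hearts (median −0.11) and 14 of 16 in NR hearts (median −0.08). Polrmt, the mitochondrial RNA polymerase, was at −0.08 and −0.18 (DESeq p 0.617 and 0.210) in the 2 deposited TAC tables, and Lrpprc, which stabilises mitochondrial mRNAs, at −0.30 and −0.29 (DESeq p 0.0677 and 0.0812). With NR, 12 of 16 were positive in TAC hearts (median 0.03) and 7 of 16 in SHAM hearts (median −0.02). Among the transcripts of mitochondrial DNA itself mt-Atp6, an ATP synthase subunit, was the 1 of 13 called after TAC in vehicle hearts, where 12 of 13 were negative (median −0.42) and 7 lower genes had an unadjusted DESeq p below 0.05. It fell from 62788.3 to 31105.0 normalized counts in the deposited table (log2 fold change −1.01, DESeq adjusted p 0.00781). These levels are far below that of mt-Co1, at 6486406.3 in Vehicle SHAM in the same table. There mt-Co3, which shares 1 base with mt-Atp6, was at 0.39 (DESeq p 0.42). The deposited value of mt-Atp6 after TAC in NR hearts was −0.32 (DESeq p 0.178). Whether the counting of reads had a part in the values of mt-Atp6 was not tested. In NR hearts 11 of 13 were negative (median −0.17) with 0 called, and mt-Atp8, which shares 43 bases with mt-Atp6, had deposited means of 3912.8 in NR SHAM and 7834.3 in NR TAC (DESeq p 0.0335, adjusted p 0.621). With NR in TAC hearts 11 of 13 were positive (median 0.29) with 0 called and 1 unadjusted DESeq p below 0.05, and in SHAM hearts 10 of 13 (median 0.05) with 0 of either.

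**Figure D4:**
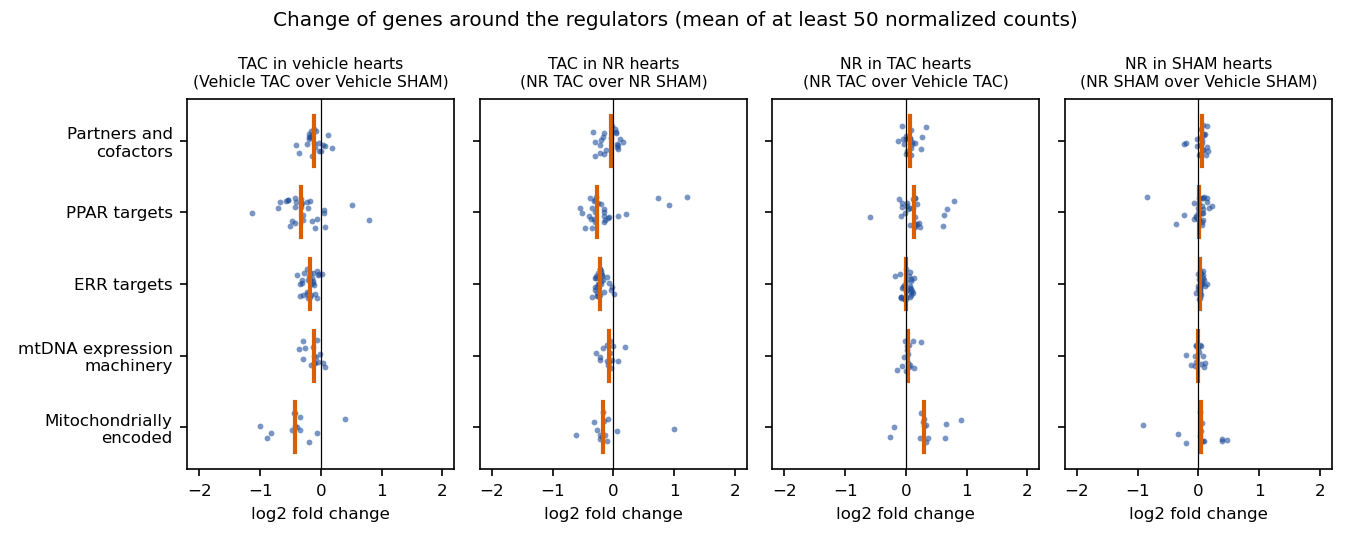
Deposited log2 fold changes (horizontal axis) of genes with a mean of at least 50 normalized counts in the 5 lists, 1 point a gene, with the list median in orange; vertical scatter within a list carries no meaning. Of the ERR targets 28 of 29 lie below 0 in each TAC comparison (medians −0.19 and −0.22) and near 0 with NR (0.00 and 0.03).

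Markers of other cell types are given as sums, and 0 were called by DESeq in any comparison. Fibroblast markers summed to 51105.2 and 44672.5 scaled normalized counts in Vehicle SHAM and NR SHAM, and to 63719.8 and 62108.0 in Vehicle TAC and NR TAC. The 5 endothelial markers lay between 23330.1 and 25118.7. Macrophage markers (6 genes) were at 4483.2 and 4286.2 in SHAM and 6362.7 and 6366.1 in TAC hearts, blood markers (5 genes) at 22215.7 and 24310.0 and at 41832.5 and 44508.6, each pair vehicle first. The near-equal macrophage sums of the TAC groups hide moves in both directions. With NR in TAC hearts 4 of 6 were lower, while Adgre1 had deposited means of 449.3 in Vehicle TAC and 1042.7 in NR TAC (DESeq p 0.42). The 5 atrial markers summed to 13034.4 in Vehicle SHAM, 6819.6 in NR SHAM, 57404.5 in Vehicle TAC and 71535.3 in NR TAC; Nppa, which ventricles also make under load, had deposited means of 50097.4 in Vehicle TAC and 29048.6 in NR TAC in the table that compares them. The adipocyte markers, 6 of 7 measured in all tables, summed to 2188.7 in Vehicle SHAM, 419.4 in NR SHAM, 488.7 in Vehicle TAC and 1079.5 in NR TAC. Among markers measured in all 4 tables, 1 was at 0, the hepatocyte marker in NR TAC; Ucp1, which is not in all of them, was at 0 in NR SHAM and Vehicle TAC. Their part in the values of the 10 genes was not tested.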

How the data were processed

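Processed tables of 4 pairs of groups were used, each made by the authors. The submitters' processing notes name TopHat, HTSeq and DESeq, used by the authors, and the build GRCm38; versions and settings are not given in the sources used here. Per the file headers and the values, the deposited signal is a mean normalized count per group, scaled within its pair of groups. A deposited fold divides 1 mean by the other after adding 1 to both, and the deposited log2 fold change is taken from it. The deposited p-value is the authors' DESeq test of the pair, adjusted over all genes of its table, and a gene was called at an adjusted p below 0.05. The deposited folds understate changes of low genes.

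The 8 mean columns were put on a common scale by their median ratio to the geometric mean over columns; 2 columns of 1 group then differed by at most 0.0323% for the members. Approximate standard errors came from dividing a log2 fold change by the normal quantile that matches its two-sided p, and intervals were formed for p up to 0.5, where 18 of 40 values lay. The difference of 2 effects was the approximate z from these errors, with Benjamini-Hochberg adjustment over all genes. It was run on simulated data whose p came from the same normal formula. That run therefore does not check errors formed from DESeq p-values. No table has values per library, so the test planned for counts and the leaving out of libraries could not be run, and no SD is given. Exon lengths and positions are from GENCODE M21 for GRCm38 (python 3.11.15, pandas 2.3.3, scipy 1.17.1, statsmodels 0.14.6). The members and lists were chosen with earlier results of these data known. Examples from each list were taken among called genes and the up to 3 with the smallest p and a mean of at least 50. The values of Polrmt and Slc27a1 in vehicle hearts and of Pdk4 in NR hearts were added after they were seen. Those of mt-Co1 and mt-Co3 after TAC in vehicle hearts and of mt-Atp6 after TAC in NR hearts are outside that rule too. Alternatives changed the threshold, the genes adjusted over, the pseudocount and the scaling. The genes nearest in pattern to Ppargc1a are not reported here.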

Additional observations from a re-analysis of the deposited data

How the results depend on the processing

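Of 210 values recomputed for single genes, their differences of effects and list medians (pseudocounts of 0 and 10, the common scale, centring on the median of genes with a mean of at least 50, a mean of at least 50, or, for 10 of them, the difference of the NR effects), 0 changed sign. A pseudocount cannot change the sign of a fold change, so those values are no check of it. The difference of the NR effects is the same contrast of the 4 groups in another order, and is no check either. The number of members called was 0 in the 4 comparisons with a threshold of 0.1 and with adjustment over genes with a mean of at least 10 or 50. An unadjusted DESeq p below 0.05 gave 1 member, Esrrb with NR in SHAM hearts, and 0 in the other 3 comparisons. Taken as the difference of the NR effects over 18474 genes, the test of the difference again called 0 members. Setting the common scale on genes with a mean of at least 50, an alternative chosen after seeing the data, gave a median ratio of highest to lowest group of 1.19 over the members. No paired analysis was possible because the tables hold group means and the titles give a library number that no groups share. Leaving out single libraries was not run, since the tables hold no value per library, so a result that rests on 1 library cannot be recognised here.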

Other observations

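The promoters of the listed genes held the same motifs in unequal shares. The core CCGGAAG lay in 8 of 15 promoters of the factors that transcribe and copy mitochondrial DNA (53.3%), among them those of Polrmt, Polg, Twnk and Ssbp1, in 2 of 30 promoters of ERR target genes and in 3 of 28 of PPAR target genes, beside 6.91% of all promoters. The NRF1 core GCATGCGC lay in 4 of 30 promoters of ERR target genes (13.3%), those of Cycs, Ogdh and Sdhb, beside 2.26% of all. The ERR motif AAGGTCA was found in 0 of the 30 promoters of ERR target genes within 250 bases upstream, and in the promoters of Acadm, Perm1, Rxra, Rxrg and Twnk from the other lists. Several promoters belong to 1 gene in places, and the shares were not tested.

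The patterns of Ppara and Esrra over the 4 groups were compared with 11874 genes by the Euclidean distance of centred log2 levels, which weighs 4 group means and describes these libraries only. Nearest to Ppara were mt-Nd4 (0.0214), a mitochondrially encoded subunit of complex I, Atm (0.0395) and Mtr (0.0403). Each had its lowest scaled mean in Vehicle TAC like Ppara, which follows from the choice by distance. Nearest to Esrra were March9 (0.00298), Camk2g (0.00561) and Slc12a7 (0.0117).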
